A study of Mus musculus with 18 samples.

Results

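Lung cells from mice labelled as heterozygous for both Foxa2 and the long non-coding RNA Falcor were compared with lung cells from wild-type mice. The comparison takes 9 of the 18 libraries of the series, chosen by their genotype labels. The 4 libraries titled Double-15 to Double-18 carry the genotype Double-Het (Falcor+/-;Foxa2+/-), and the 5 libraries titled WT-1 to WT-5 are wild type. Another genotype, Foxa2+/- (n = 4, replicates 11 to 14), is given beside them because it shares the loss of a Foxa2 copy. The Foxa2+/- and wild-type libraries carry no Falcor deletion by their labels. The mice were 10 to 12 weeks old. Cells bearing the epithelial surface protein EpCAM were captured on magnetic beads and their total RNA was sequenced. How the alleles were made, the strain, the sex and the time of day of collection are not given in the labels, nor whether each library is 1 animal, so the p-values measure the spread between these libraries, which may be technical. The remaining 5 libraries of the series, labelled Falcor-/-, enter the shared estimate of the spread, 1 check of Falcor and a comparison of leading falls and macrophage means.

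Foxa2 is a forkhead transcription factor that, with its relatives Foxa1 and Foxa3, opens chromatin and drives genes of endoderm-derived organs. In the lung it acts with Nkx2-1 in the epithelium, where it takes part in alveolar maturation, in surfactant production and in restraining mucous cell differentiation. Falcor (Foxa2-adjacent long non-coding RNA, annotated as 9030622O22Rik) is transcribed from the gene next to Foxa2. The series title names it as a regulator of Foxa2 expression, and the double genotype asks how the captured cells differ from wild type when a copy of each gene is lost.

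Every level below is a log2 value as the authors deposited it, a difference is the mean of the Double-Het-labelled libraries minus the mean of the wild-type libraries, and a gene is called changed at a limma adjusted p below 0.05. Pearson's r across genes was 0.97 to 0.981 among the libraries labelled Double-Het, 0.964 to 0.984 among wild-type libraries and 0.937 to 0.967 between them. Epithelial genes were high in both genotypes. Epcam lay at 14.29, 14.48, 13.93 and 14.06 in libraries labelled Double-Het and at 13.75, 13.79, 14.00, 13.93 and 13.95 in wild-type libraries, and Cdh1 differed by -0.02 (limma adjusted p = 0.918). The leukocyte gene Ptprc lay at 14.01 to 14.50 in libraries labelled Double-Het and at 13.96 to 14.57 in wild-type libraries, and the endothelial gene Pecam1 at 10.95 to 11.78 in libraries labelled Double-Het and at 12.84 to 14.43 in wild-type libraries. RNA of genes that mark leukocytes and endothelium was thus measurable in both genotypes. Wild-type replicate 3 stood apart from the other wild-type libraries in having the lowest endothelial, fibroblast and alveolar type 1 list means of its genotype, and Double-Het replicates 15 and 16 stood apart from replicates 17 and 18 in having higher ribosomal and mitochondrial list means.

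Promoter sequences are shown for the 2 targeted genes, for the 2 genes whose window held a forkhead word among the 16 named as the 8 largest rises and 8 largest falls without overlap, pseudogenes left out, and for Tef. Tef, a clock output gene called in both comparisons, is shown because its window held the letters CACGTG. The windows are RefSeq sequences on build GRCm38.p6, run from 250 bases before to 50 bases after the annotated start and are written 5′ to 3′ on the strand of the gene. Capitals mark a match to TGTTTAC or TGTTTGC on either strand, letters that Foxa proteins are known to prefer, or in Tef a match to CACGTG, the E-box read by the clock factors CLOCK and BMAL1. The Foxa2 window is chr2:148046920-148047219 on the minus strand, the Falcor window chr2:148040437-148040736 on the minus strand, the Kng2 window chr16:23029052-23029351 on the minus strand, the Mmp13 window chr9:7272264-7272563 on the plus strand and the Tef window chr15:81802423-81802722 on the plus strand.
Foxa2: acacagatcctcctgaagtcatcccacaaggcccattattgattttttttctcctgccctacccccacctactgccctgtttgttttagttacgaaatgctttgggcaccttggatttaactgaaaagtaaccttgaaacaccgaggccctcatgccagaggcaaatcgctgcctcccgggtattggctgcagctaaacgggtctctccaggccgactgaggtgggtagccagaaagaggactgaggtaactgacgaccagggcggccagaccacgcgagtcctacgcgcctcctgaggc
Falcor: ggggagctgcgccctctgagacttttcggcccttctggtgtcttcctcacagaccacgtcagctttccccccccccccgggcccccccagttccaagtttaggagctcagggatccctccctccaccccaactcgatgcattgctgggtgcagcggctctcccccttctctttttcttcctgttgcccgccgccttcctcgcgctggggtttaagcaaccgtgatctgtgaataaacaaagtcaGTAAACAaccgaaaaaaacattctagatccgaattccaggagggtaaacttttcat
Kng2: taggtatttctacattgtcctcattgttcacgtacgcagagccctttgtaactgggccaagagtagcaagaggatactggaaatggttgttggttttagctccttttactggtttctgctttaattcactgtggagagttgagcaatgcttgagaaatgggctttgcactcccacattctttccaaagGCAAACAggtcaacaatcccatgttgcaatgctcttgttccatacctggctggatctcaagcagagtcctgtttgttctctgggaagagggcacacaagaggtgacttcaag
Mmp13: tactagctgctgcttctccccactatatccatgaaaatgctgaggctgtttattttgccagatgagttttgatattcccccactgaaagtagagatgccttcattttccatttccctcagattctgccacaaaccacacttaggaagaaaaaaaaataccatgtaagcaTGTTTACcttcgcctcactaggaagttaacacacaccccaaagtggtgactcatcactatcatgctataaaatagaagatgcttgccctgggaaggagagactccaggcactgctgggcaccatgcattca
Tef: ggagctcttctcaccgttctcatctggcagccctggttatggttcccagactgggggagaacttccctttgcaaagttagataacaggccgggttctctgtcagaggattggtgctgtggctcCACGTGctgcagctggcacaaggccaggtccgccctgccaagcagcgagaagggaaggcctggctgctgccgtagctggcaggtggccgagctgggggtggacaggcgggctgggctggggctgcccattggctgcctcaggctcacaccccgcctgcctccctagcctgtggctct
None of the 3 RefSeq windows of Foxa2 held the letters searched, and 23 of the 26 overlapping windows of Falcor did, with GTAAACA placed 6 bases before the start of the window shown. The match lay 62 bases before the start in Kng2 and 81 bases before it in Mmp13, and the CACGTG of Tef lay 127 bases before its start. No window of the clock genes Per3, Dbp, Arntl, Clock and Nr1d1 held CACGTG. Each capitalised window held 1 match, so no matches overlapped. Of all 32851 windows of 300 bases, 8.48% held a forkhead word and 7.15% held CACGTG. Counted by gene, 9.47% of 27025 genes had a window with a forkhead word and 8.09% a window with CACGTG. Of the 16 genes with the largest changes 15 had a window, and 2 of these held a forkhead word. A match describes letters only and is no evidence of binding.

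Foxa2 RNA was lower in every library labelled Double-Het than in every wild-type library. Foxa2 (ENSMUSG00000037025, chromosome 2) lay at 12.58, 12.34, 12.40 and 12.11 in the libraries labelled Double-Het, against 12.94, 12.99, 13.03, 13.03 and 12.83 in wild-type libraries. The groups did not overlap, and the difference of -0.60 (SE 0.10, 95% confidence interval -0.82 to -0.38, limma adjusted p = 0.000891) left 65.8% of the wild-type level. The exact permutation p was 0.00794, the smallest that 4 against 5 libraries allow. Foxa2+/- libraries lay at 12.37, 12.38, 12.35 and 12.47, within the spread of those labelled Double-Het, and the difference between these genotypes was -0.03 (95% confidence interval -0.26 to 0.20, limma adjusted p = 0.901).

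Falcor RNA went against the label. Falcor (ENSMUSG00000086141, chromosome 2) lay at 11.61, 11.65, 11.86 and 11.50 in libraries labelled Double-Het, against 10.72, 10.21, 9.68, 9.71 and 10.59 in wild-type libraries. All 4 were above all 5, by 1.48 (SE 0.29, limma adjusted p = 0.00242, exact permutation p = 0.00794), or 2.78 times the wild-type level. In Foxa2+/- libraries, which carry no Falcor deletion by label, it lay at 11.46, 11.96, 11.66 and 11.72, and the difference between Double-Het-labelled and Foxa2+/- libraries was -0.04 (limma adjusted p = 0.954). The loss of a Falcor copy is therefore not visible in the level of this RNA. The Falcor-/- libraries averaged 6.20 ± 0.68 (SD, n = 5) and the wild-type libraries 10.18 ± 0.48 (SD, n = 5), a difference of -3.98 (limma adjusted p = 6.35e-07), so this value was lower where both copies are deleted by label. The labels do not say which part of the gene was deleted, and the genotype is called by its label throughout.

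Of the other Foxa genes, Foxa1 rose and Foxa3 did not pass the test. Foxa1 lay at 13.67, 13.76, 13.78 and 13.51 in libraries labelled Double-Het and at 13.50, 13.28, 13.37, 13.16 and 13.14 in wild-type libraries, without overlap (0.39, SE 0.11, limma adjusted p = 0.0258). This call was lost when any of 5 single libraries was left out, among them Double-Het replicates 15, 16 and 17, and after centring on epithelial genes. Foxa3 averaged 6.91 ± 0.60 (SD, n = 4) in libraries labelled Double-Het and 6.23 ± 0.35 (SD, n = 5) in wild-type libraries (0.68, limma adjusted p = 0.147). Nkx2-1, the transcription factor that defines lung epithelium, differed by 0.21 (limma adjusted p = 0.118).

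**Figure D1:**
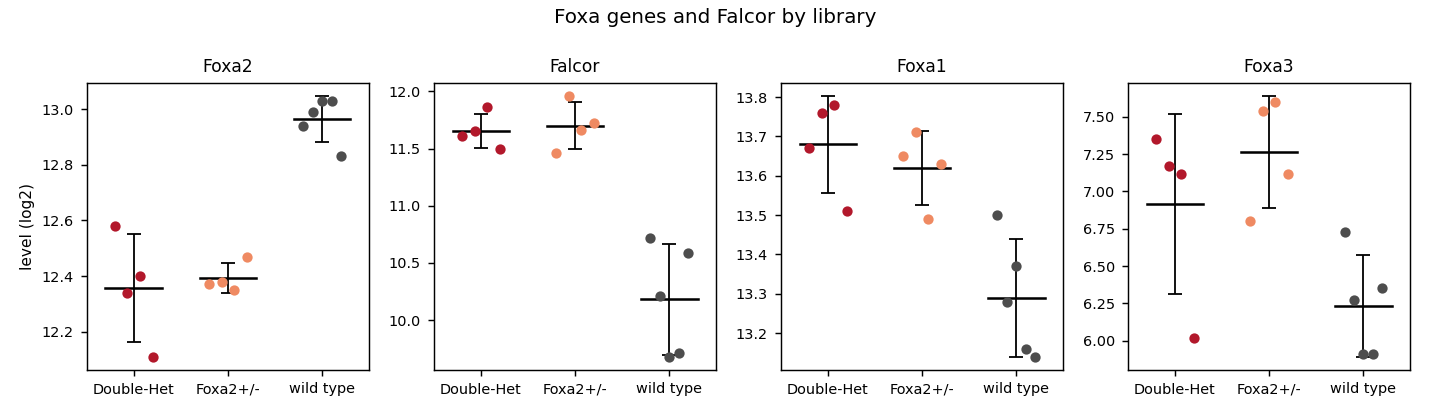
Log2 level of Foxa2, Falcor, Foxa1 and Foxa3 (y axis, scale differs by panel) in each library (points) labelled Double-Het, Foxa2+/- and wild type, with mean (line) and SD (bar). Foxa2 is at 12.11 to 12.58 in the libraries labelled Double-Het, below the wild-type range of 12.83 to 13.03, and Falcor is above its wild-type range.

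Across the transcriptome, 2254 of 15249 genes tested were called, which is 14.8%. Of these 1100 were higher (7.21%) and 1154 lower (7.57%), and the median difference over all genes was 0.07. Large differences were mostly falls: 171 called genes were higher and 610 lower by 1 log2 unit or more. The libraries of the genotypes did not overlap for 2395 genes, 15.7% of those tested, with 1313 higher (8.61%) and 1082 lower (7.1%), and 1747 genes were both called and without overlap. The count of calls depended on Double-Het replicates 15 and 16, without which it was 1374 and 1342, with 524 and 513 of them higher. Centring each library on 39 epithelial junction genes lowered every difference by 0.17, moved the median of all genes to -0.10 and left 319 higher and 2173 lower calls, so that 12.8% of calls were higher instead of 48.8%. After it, 0 genes were called higher in the lists of alveolar type 2, Notch, Wnt, TGF-beta and BMP, growth factor, chemokine, class I presentation, unfolded protein response, glycolysis, cholesterol synthesis, elastic fibre, fibroblast and lymphocyte genes, so every rise named below in those lists lost its call there. On single chromosomes the called share was 12.7% to 18.1%, with 16.5% on chromosome 2, which holds Foxa2 and Falcor.

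The largest rises included genes at low levels in wild-type libraries. Kng2, which encodes a kininogen, lay at 8.26, 8.25, 9.51 and 8.24 in libraries labelled Double-Het, against 3.08, 4.78, 3.48, 4.95 and 4.92 in wild-type libraries (4.32, SE 0.70, limma adjusted p = 0.000544). Cst8, a cystatin gene, lay at 11.43, 10.80, 10.54 and 11.16 in libraries labelled Double-Het and at 4.68, 7.77, 9.09, 7.71 and 6.23 in wild-type libraries (3.89, SE 0.61, limma adjusted p = 0.0004). The groups are separate in each gene by the choice of genes without overlap, and the wild-type libraries spread over several log2 units in Cst8. Kng2 has near relatives whose reads it may share. Ros1, a receptor tyrosine kinase, lay at 12.22, 12.32, 12.17 and 12.70 in libraries labelled Double-Het and at 10.72, 10.60, 9.14, 7.89 and 10.32 in wild-type libraries (2.62, SE 0.48, limma adjusted p = 0.0016). AA467197 was higher by 3.63, although wild-type replicates 3 and 4 at 7.71 and 8.19 came close to the lowest Double-Het-labelled library at 8.62. Fez1, an adaptor of kinesin transport, was higher by 2.48, Ak4, a mitochondrial adenylate kinase, by 2.34, Bfsp1, a filament protein known from the eye lens, by 2.31 and Fabp3, a fatty acid carrier, by 2.30. Foxa2+/- libraries were also higher than wild type in Kng2 (3.89), Cst8 (3.25), Bfsp1 (2.15), Ros1 (2.1), Fez1 (1.67) and Ak4 (0.98), all called. AA467197 (2.36) and Fabp3 (1.07) were not called there. Of these rises, Ak4 alone was called directly against Foxa2+/- (1.36, limma adjusted p = 0.0144). That call was lost without Double-Het replicate 16 or Foxa2+/- replicate 13. In the order of tested genes along chromosome 2, Cst8 is 6 genes, Bfsp1 24 genes and AA467197 154 genes from Foxa2. Thbd, a fall given below, is 1 gene from Foxa2, as is Falcor.

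Falls were larger, and several of the leading ones are genes known from macrophages and other immune cells. F13a1, the A subunit of coagulation factor XIII, made by macrophages, lay at 6.35, 5.70, 6.16 and 5.03 in libraries labelled Double-Het, against 12.15, 11.81, 11.66, 11.86 and 11.86 in wild-type libraries (-6.06, SE 0.91, limma adjusted p = 0.000264). That is 1.5% of the wild-type level on the deposited scale. Mmp13, a collagenase, lay at 4.42, 3.93, 4.29 and 4.48 in libraries labelled Double-Het and at 9.37, 9.08, 9.24, 9.14 and 7.98 in wild-type libraries (-4.68, SE 0.88, limma adjusted p = 0.00173). Cxcl13, a chemokine that draws B cells, averaged 4.26 ± 0.41 (SD, n = 4) in libraries labelled Double-Het and 9.03 ± 0.58 (SD, n = 5) in wild-type libraries. Cd209f (-5.22), a C-type lectin gene, Pla2g2d (-4.71), a secreted phospholipase gene, and Pla2g7 (-4.27), whose product breaks down platelet-activating factor, fell as well. H2-Q1, a class I gene with near-identical relatives, lay at 4.83, 4.99, 3.76 and 8.52 in libraries labelled Double-Het, so that replicate 18 stood near the wild-type range of 9.28 to 11.02.

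Phf24, a PHD finger gene, was the fall with the smallest p among those named. It lay at 7.80, 7.63, 7.54 and 7.36 in libraries labelled Double-Het, against 12.29, 12.65, 11.97, 11.43 and 11.69 in wild-type libraries, a difference of -4.43 (SE 0.25, limma adjusted p = 3.46e-08), or 4.65% of the wild-type level. Its Foxa2+/- libraries lay between these groups at 9.91, 10.78, 10.92 and 10.79, and the difference from them was -3.02 (SE 0.26, limma adjusted p = 1.66e-05). When the mean of the endothelial list was added to the model as a covariate, Phf24 (-4.57, limma adjusted p = 0.00655) and the amino acid transporter Slc38a4 (-3.18, limma adjusted p = 0.0396) were the 2 genes still called. The endothelial list mean does not overlap between the genotypes (9.49 to 10.12 in libraries labelled Double-Het and 11.18 to 12.52 in wild-type libraries), so in this fit the endothelial level and the genotype cannot be told apart, and lost calls do not show that a difference went with endothelium. With the covariate the difference was -6.36 for F13a1, against -6.06 without it, and -0.21 for Cdh5, against -2.99, and neither was called with it. Cdh5 is itself a member of the endothelial list, so its smaller difference was built into this fit. The values of these 2 genes are therefore no test of which falls went with endothelium.

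Among abundant genes, with a mean of 12 or more over the 9 libraries, the rises with the smallest p were modest. Nrbp2, a pseudokinase gene, lay at 14.59, 14.43, 14.51 and 14.47 in libraries labelled Double-Het and at 13.83 to 14.05 in wild-type libraries (0.59, SE 0.07, limma adjusted p = 6.63e-05). Neat1, the long non-coding RNA that scaffolds paraspeckles, lay at 16.95, 16.98, 16.82 and 17.09 in libraries labelled Double-Het and at 16.07, 16.52, 16.21, 16.33 and 16.17 in wild-type libraries (0.70, SE 0.10, limma adjusted p = 0.000151). Slc46a3, a lysosomal transporter, was higher by 0.74, Lrig1, a brake on EGF receptor signalling, by 0.54 and the RNA-binding protein gene Snd1 by 0.44. These genes did not overlap between the genotypes. The abundant falls were Thbd (-3.0), which encodes the endothelial anticoagulant receptor thrombomodulin, Acer2 (-2.96), a ceramidase, Jcad (-2.06), a protein of endothelial junctions, Mylk (-1.60), the myosin light chain kinase of smooth muscle, and Cyth3 (-1.18), an exchange factor for Arf GTPases.

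Genes of alveolar type 2 cells, the surfactant-making cells of the alveolus, gave few calls. Of 23 tested, 2 were higher, 0 lower and 21 not called (8.7% called, against 14.8% of all genes), with a median difference of 0.16 against 0.07 over all genes. Muc1, a membrane mucin, lay at 16.01, 15.95, 16.03 and 16.07 in libraries labelled Double-Het and at 15.64, 15.73, 15.73, 15.42 and 15.44 in wild-type libraries (0.42, SE 0.11, limma adjusted p = 0.0159), and S100g, a calcium-binding protein gene, was higher by 0.61 (limma adjusted p = 0.0466). After the centring neither was called, and S100g also lost its call without any of 7 single libraries and without the intensity trend. Sftpc and Sftpb, which encode surfactant proteins, lay at 18.73 and at 18.27 in all 4 libraries labelled Double-Het, and at 18.56 to 18.73 and 18.09 to 18.34 in wild-type libraries. These are the top ranks of the quantile-normalized scale, where only a few values can be taken and a change of all surfactant genes together would not show. The lipid transporter Abca3 differed by -0.23 (95% confidence interval -0.57 to 0.11, limma adjusted p = 0.363).

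Alveolar type 1 genes, those of the flat cells of gas exchange, were mostly lower. Of 22 tested, 14 fell, 0 rose and 8 were not called, with a median of -0.65. Cav1, the caveolae coat protein, lay at 13.75, 13.44, 13.66 and 13.58 in libraries labelled Double-Het, against 14.90, 15.15, 14.05, 15.25 and 15.12 in wild-type libraries (-1.29, SE 0.23, limma adjusted p = 0.00117). Limch1, an actomyosin regulator, averaged 13.70 ± 0.27 (SD, n = 4) in libraries labelled Double-Het and 14.67 ± 0.32 (SD, n = 5) in wild-type libraries (-0.97, limma adjusted p = 0.00138). Ager, the receptor that marks these cells most strongly in the lung, lay at 16.50, 16.28, 16.16 and 16.20 in libraries labelled Double-Het and at 16.41 to 16.92 in wild-type libraries and fell by 0.47 (limma adjusted p = 0.0165), with overlap. Among the 8 members not called, Hopx differed by -0.46, Aqp5 by 0.35 and Cldn18 by -0.07. Several falling members, such as Cav1, Limch1, Col4a3 (-1.04) and Vegfa (-0.70), are also expressed in other lung cells. The list mean was 13.63 to 13.94 in libraries labelled Double-Het, 13.68 to 13.79 in Foxa2+/- libraries and 13.87 to 14.66 in wild-type libraries, where the lowest value was that of replicate 3, the library with the lowest endothelial mean of its genotype. The part of other cells in the fall of this list was not tested.

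Airway lists were called at shares near or below the 14.8% of all genes, with 18.2% of club, 16.7% of basal, 13.3% of mucous, 6.67% of neuroendocrine and 0 of ciliated genes. Of 22 club cell genes, those of the secretory cells of the bronchioles, 4 were higher, 0 lower and 18 not called, with a median of 0.37. The 4 were Pon1 (0.85), an esterase gene, Gsta3 (0.83), a glutathione transferase gene, Scgb3a2 (0.67), a secretoglobin gene, and Selenbp1 (0.51). Without Double-Het replicate 15 or 16 none was called, and after the centring 1 was. Gsta3 lay at 14.31, 14.84, 14.51 and 13.74 in libraries labelled Double-Het and at 13.29 to 13.91 in wild-type libraries, so replicate 18 stood inside the wild-type range. The main secretoglobin Scgb1a1 differed by 0.08 (limma adjusted p = 0.729). None of the 36 ciliated cell genes was called by limma, with 2 at an unadjusted p below 0.05 and 5 called when libraries were weighted, and Foxj1, their master regulator, differed by -0.04 (95% confidence interval -0.39 to 0.31). Of 15 mucous cell genes 1 rose and 1 fell. Fcgbp, a mucus-binding protein gene, lay at 10.35, 11.50, 11.49 and 11.57 in libraries labelled Double-Het, against 9.82 to 10.47 in wild-type libraries (1.13, limma adjusted p = 0.0156), with replicate 15 inside the wild-type range. Creb3l1, a transcription factor of secretory cells, fell by 0.78, and the mucin genes Muc5ac and Muc5b, which did not pass, differed by 0.55 and 0.32. Of 12 basal cell genes 2 fell, Pdpn by 0.88 and Itga6 by 0.72, both of which also occur in other lung cells, and Pdpn lost its call without any of 8 single libraries. Scn3b, a sodium channel subunit gene (-1.45), was the single call among 15 neuroendocrine genes.

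Of 39 epithelial junction genes, 6 rose, 1 fell and 32 were not called (17.9% called, against 14.8% of all genes), with a median of 0.15. Cldn4, a tight junction claudin, lay at 11.27, 11.40, 11.31 and 11.19 in libraries labelled Double-Het, against 10.00, 9.62, 10.49, 10.78 and 10.00 in wild-type libraries (1.11, SE 0.21, limma adjusted p = 0.00162). Cldn8 was higher by 0.66 and Ehf, an epithelial transcription factor, by 0.49, while Ctnnd1, which encodes p120 catenin, fell by 0.37. Of 44 lung transcription factors 5 rose and 7 fell (27.3% called). Ehf, Elf5 (0.66), Irx3 (0.46), Foxa1 and Grhl2 (0.35) were the rises, and Sox17 (-2.42) and Tbx2 (-2.43), which in the lung belong to endothelium and mesenchyme, were the largest falls. Tbx2 lay at 9.58, 9.05, 9.38 and 9.33 in libraries labelled Double-Het and at 11.77, 11.96, 10.48, 11.94 and 12.68 in wild-type libraries, again lowest in wild-type replicate 3.

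**Figure D2:**
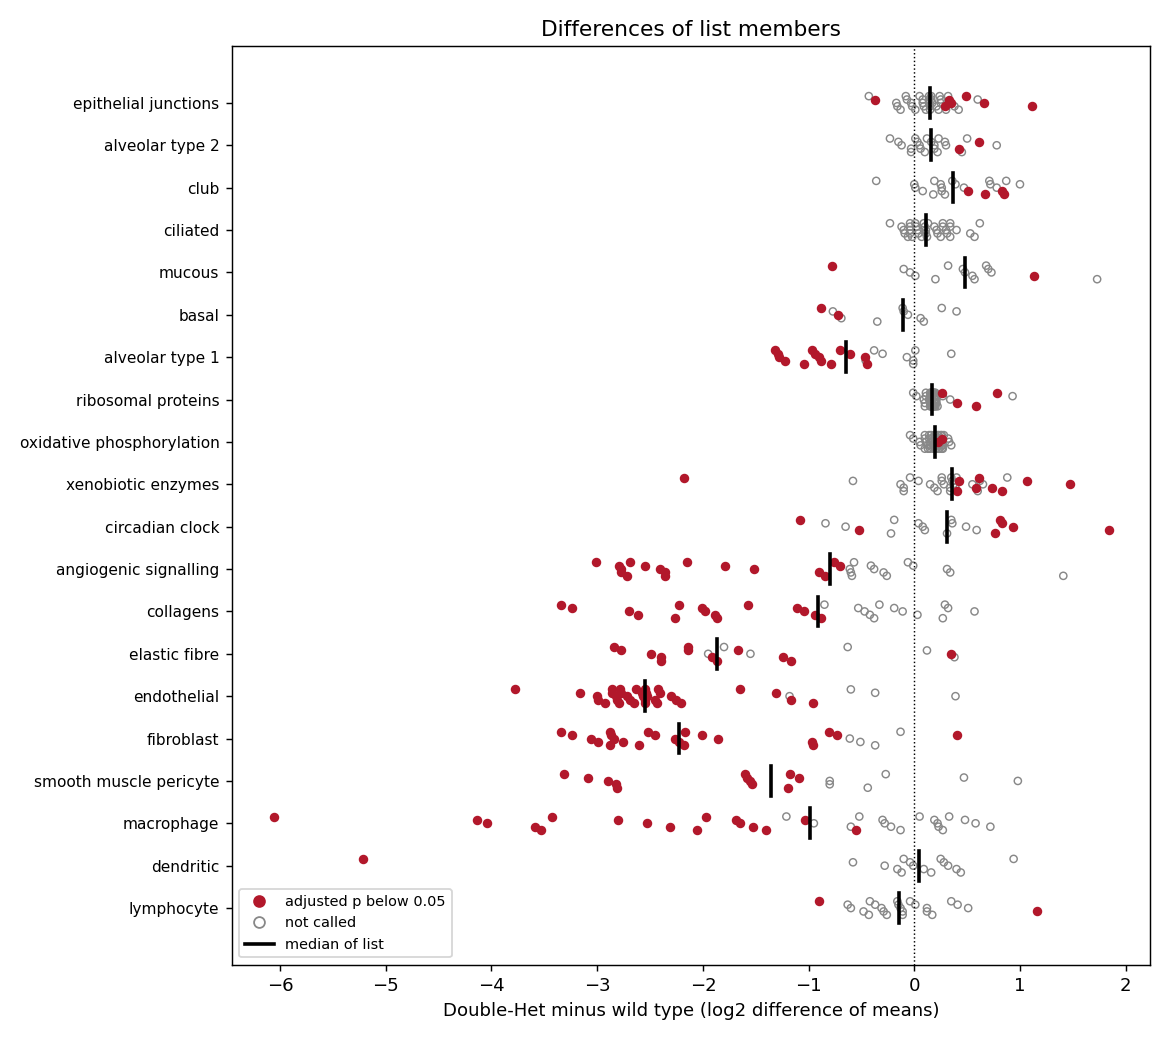
Difference of means (x axis, Double-Het-labelled minus wild type, log2) for every tested member of 20 lists (rows), with called genes filled, other genes open and the list's median as a bar. Endothelial genes have a median of -2.55 and fibroblast genes of -2.23, while alveolar type 2 genes have a median of 0.16.

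Endothelial genes fell nearly throughout. Of 38 tested, 34 fell, 0 rose and 4 were not called, with a median of -2.55. Cdh5, which encodes VE-cadherin, lay at 11.26, 10.69, 11.57 and 11.93 in libraries labelled Double-Het, against 14.46, 14.58, 13.31, 14.62 and 14.79 in wild-type libraries (-2.99, SE 0.36, limma adjusted p = 6.13e-05). Tmem100, a gene of BMP signalling in vessels, lay at 10.67, 10.25, 10.38 and 10.61 in libraries labelled Double-Het and at 13.30, 13.69, 12.30, 13.51 and 13.88 in wild-type libraries (-2.86). The groups were separate in both genes, with wild-type replicate 3 nearest to the other group. Lyve1 (-3.78) and Flt4 (-2.72), known from lymphatic vessels, fell as did Plvap (-2.82) and Gpihbp1 (-2.58), known from blood capillaries. Kdr (-0.60), Esam (-0.37), Prox1 (-1.18) and Bmx (0.39) did not pass. The list mean was 9.49 to 10.12 in libraries labelled Double-Het, 10.01 to 10.44 in Foxa2+/- libraries and 11.18 to 12.52 in wild-type libraries. In bulk RNA fewer cells of a type and less RNA per cell cannot be told apart. Of the angiogenic ligands and receptors 17 of 30 fell and 0 rose, including the receptor genes Tie1 (-2.79), Tek (-2.77) and Flt1 (-2.69), the guidance ligand Slit3 (-3.01) and Vegfa. Vegfa, made by alveolar type 1 cells among others, lay at 14.76, 14.42, 15.01 and 14.53 in libraries labelled Double-Het and at 14.88 to 15.66 in wild-type libraries, with overlap.

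Mesenchymal genes fell with them. Of 27 fibroblast genes 22 fell, 1 rose and 4 were not called, with a median of -2.23. Pdgfra, the platelet-derived growth factor receptor of lung fibroblasts, lay at 9.04, 8.55, 9.36 and 8.88 in libraries labelled Double-Het, against 12.01, 12.45, 10.96, 12.11 and 12.22 in wild-type libraries (-2.99, SE 0.34, limma adjusted p = 4.41e-05). Dpt (-2.87), a matrix protein gene, and the mesenchymal transcription factors Tbx4 (-2.88) and Tbx5 (-2.88) fell. Of 18 smooth muscle and pericyte genes 12 fell, with Postn, which encodes periostin, at 8.47, 7.17, 8.10 and 7.76 in libraries labelled Double-Het and at 11.66, 11.30, 10.06, 10.87 and 12.01 in wild-type libraries (-3.31). None of 10 mesothelial genes was called by limma, with 2 at an unadjusted p below 0.05 and 1 called in the fit on the 2 genotypes alone.

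Genes of the extracellular matrix followed. Of 28 collagens 15 fell and 0 rose, led by Col14a1 (-3.34) and Col13a1 (-3.24), with Col1a1 at 9.77, 10.42, 9.95 and 10.05 in libraries labelled Double-Het and at 12.03, 12.43, 11.50, 12.45 and 12.96 in wild-type libraries (-2.23, SE 0.63, limma adjusted p = 0.0255). The basement membrane collagens Col4a1 (-1.11) and Col4a3 (-1.04) fell by less. Of 19 elastic fibre genes 12 fell and 1 rose, with Eln, which encodes elastin, lower by 2.40, the microfibril genes Mfap4 by 2.84 and Fbn1 by 2.77, and Efemp2 higher by 0.35. Of 30 laminins and integrins 17 fell and 0 rose, from Lama2 (-3.16), a laminin chain of mesenchymal basement membranes, and Itga8 (-2.50) to Itgb1 (-0.32).

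**Figure D3:**
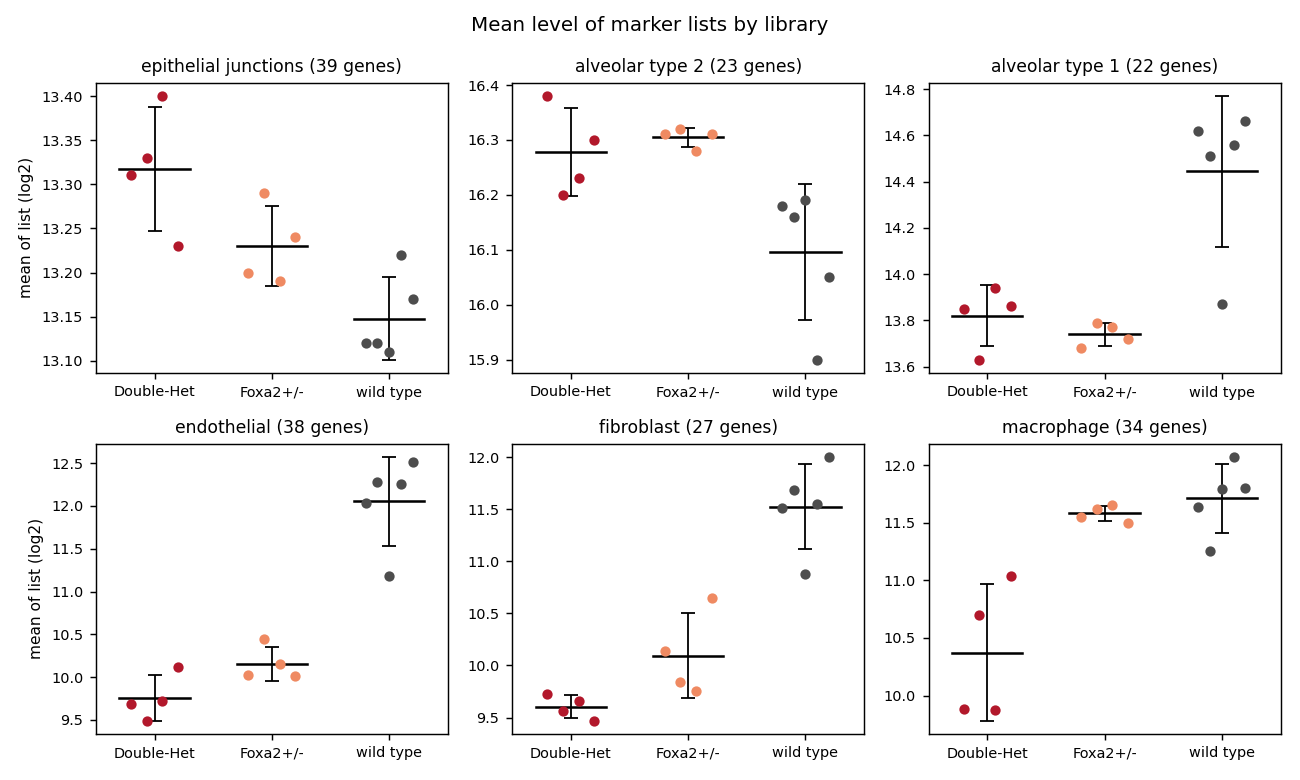
Mean log2 level of 6 marker lists (y axis, scale differs by panel) in each library (points) labelled Double-Het, Foxa2+/- and wild type, with mean (line) and SD (bar). Endothelial means are 9.49 to 10.12 in libraries labelled Double-Het and 11.18 to 12.52 in wild-type libraries, and macrophage means are 9.87 to 11.04 in libraries labelled Double-Het and 11.50 to 11.65 in Foxa2+/- libraries.

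Several of the signalling genes that fell are also known from endothelium and mesenchyme. In the Notch list 8 of 24 fell and 2 rose: the ligands Dll1 (-1.98) and Dll4 (-1.82), the receptor Notch4 (-1.09) and the targets Heyl (-1.93) and Hey1 (-1.39) fell, and Nrarp (0.68) and Rfng (0.23) rose. In the TGF-beta and BMP list 12 of 39 fell and 1 rose, with the ligand Bmp6 at 9.27, 8.66, 9.27 and 9.43 in libraries labelled Double-Het and at 12.06, 12.24, 10.67, 12.29 and 12.65 in wild-type libraries (-2.83, SE 0.39, limma adjusted p = 0.000141) and with the co-receptor Eng (-2.65). The YAP target genes Ccn2 and Ccn1 were lower by 1.60 and 1.11, and 8 of 20 in that list fell. Among 36 genes of FGF, EGF and related growth factor signalling 10 fell and 2 rose. Igf1, the insulin-like growth factor, lay at 5.70, 4.75, 5.68 and 6.02 in libraries labelled Double-Het, against 9.27, 8.69, 8.60, 8.24 and 8.88 in wild-type libraries (-3.20, SE 0.35, limma adjusted p = 3.69e-05), and Erbb2 (0.32) and Spry1 (0.32) were the rises. The called shares were 41.7% of Notch, 33.3% of TGF-beta and BMP, 40.0% of YAP target and 33.3% of growth factor genes. Of 35 Wnt genes 2 rose and 3 fell (14.3% called, against 14.8% of all genes). The epithelial ligand Wnt7b (0.78) and Rnf43 (0.56), a Wnt receptor ligase, were higher, and the receptor Fzd4 (-1.89) and the inhibitor Nkd2 (-2.45) were lower. The call of Wnt7b was lost when any of 4 single libraries was left out. How much of these falls goes with the endothelial and mesenchymal lists was not tested.

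Many macrophage genes fell. Of 34 tested, 17 fell and 0 rose, with a median of -0.99. The C1q genes, whose products start the classical complement pathway and are made by interstitial macrophages, fell together. C1qa lay at 10.49, 9.97, 9.58 and 9.60 in libraries labelled Double-Het, against 13.97, 13.18, 13.08, 13.35 and 13.92 in wild-type libraries (-3.59, SE 0.74, limma adjusted p = 0.00379). C1qb (-3.53) and C1qc (-4.14) fell as well. The receptor of colony-stimulating factor 1, Csf1r, lay at 12.98, 13.01, 12.95 and 12.99 in libraries labelled Double-Het and at 14.57, 14.19, 14.15, 14.53 and 14.46 in wild-type libraries (-1.40). Ms4a7 (-4.04), the scavenger receptor Msr1 (-3.43), the folate receptor Folr2 (-2.80), the lipid receptor Trem2 (-2.53) and the chemokine receptor Cx3cr1 (-2.06) fell too.

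Most listed genes known from alveolar macrophages, which live on the airspace surface, were among the 17 not called, and Car4, also known from capillaries, fell by 1.65 (limma adjusted p = 0.0259). Itgax lay at 13.85, 14.02, 13.85 and 14.37 in libraries labelled Double-Het and at 13.10, 13.26, 14.16, 14.02 and 13.17 in wild-type libraries (0.48, limma adjusted p = 0.156). Siglecf lay at 8.60, 10.72, 8.82 and 11.21 in libraries labelled Double-Het and at 8.79, 7.72, 9.95, 10.31 and 8.84 in wild-type libraries, so that the spread within each genotype exceeded the difference of 0.72. Fabp4 (-0.95), Mrc1 (-1.21), Marco (-0.52), Chil3 (-0.30), Pparg (0.58), Ear1 (0.22), Ear2 (0.27), Krt79 (-0.22), Plet1 (0.23), Atp6v0d2 (0.33) and the pan-macrophage gene Cd68 (-0.13) did not pass either. The macrophage list mean was 9.88, 10.70, 9.87 and 11.04 in libraries labelled Double-Het, against 11.50 to 11.65 in Foxa2+/- libraries and 11.25 to 12.07 in wild-type libraries. A difference between these kinds of macrophage gene was not itself tested.

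**Figure D4:**
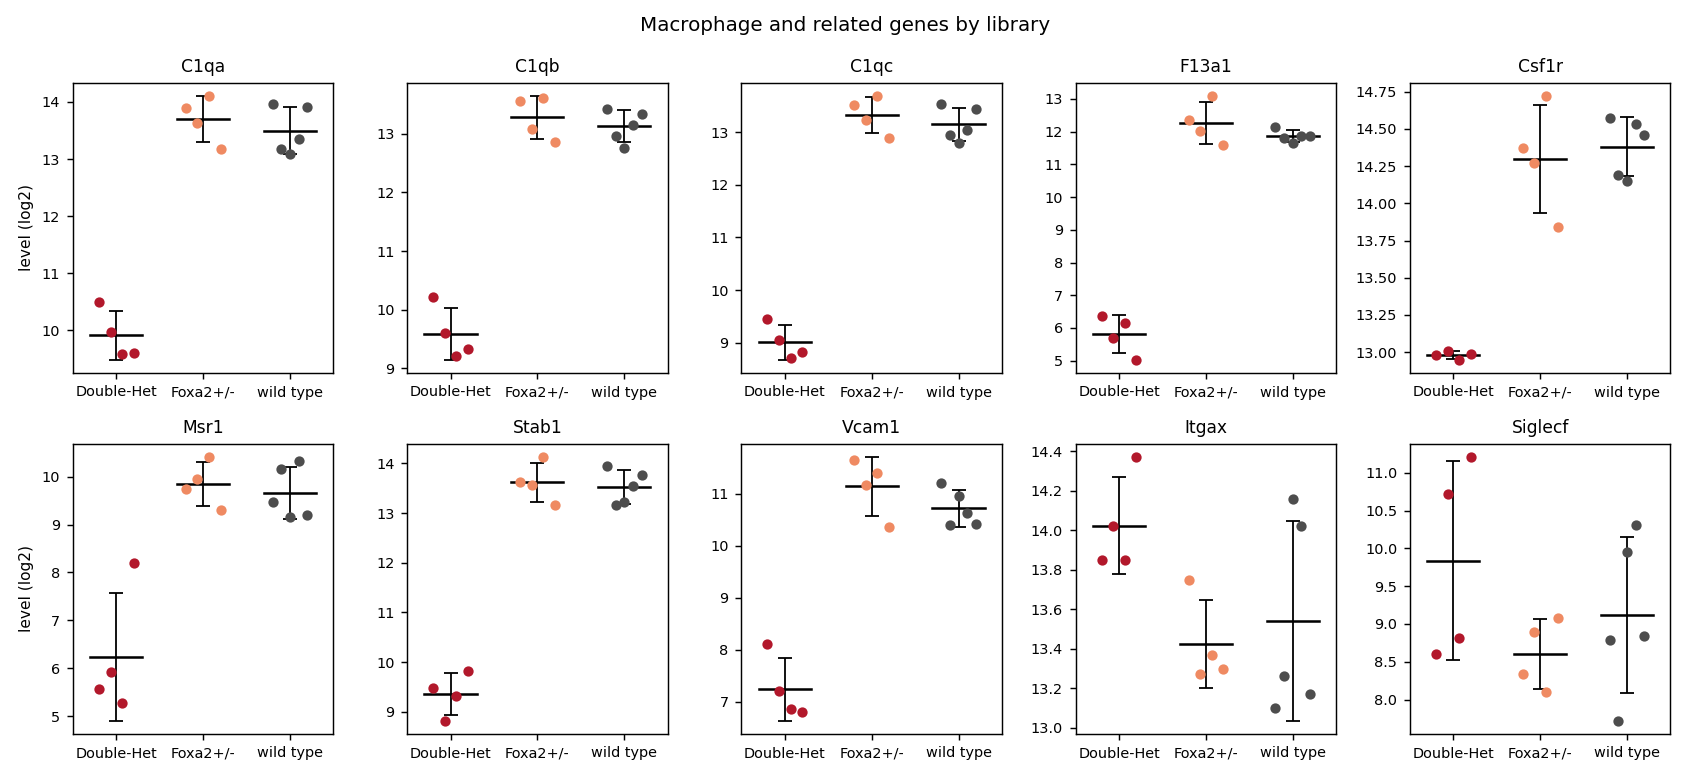
Log2 level of 10 genes of macrophages and related cells (y axis, scale differs by panel) in each library (points) labelled Double-Het, Foxa2+/- and wild type, with mean (line) and SD (bar). C1qa is at 9.58 to 10.49 in libraries labelled Double-Het and at 13.08 or more in the other libraries drawn, while Itgax and Siglecf overlap between the genotypes.

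Dendritic and lymphocyte genes were called at shares below the 14.8% of all genes. Of 16 dendritic genes 1 was called, Cd209f (6.25%), and Flt3 (0.28), Xcr1 (0.44) and Clec9a (-0.04) did not pass. Of 24 lymphocyte genes 1 fell and 1 rose (8.33% called). Cd4, also made by macrophages, fell by 0.90, the natural killer gene Klrd1 was higher by 1.16 and the T cell gene Cd3e (0.17) did not pass. Klrd1 lost its call without any of 7 single libraries. Of 6 red cell and platelet genes 3 fell and 1 rose (66.7% called). Of 9 granulocyte and mast cell genes 3 fell and 0 rose (33.3% called). Pf4, the platelet factor that macrophages also express, lay at 7.35, 6.58, 6.72 and 6.53 in libraries labelled Double-Het, against 10.31, 9.98, 9.59, 9.60 and 10.33 in wild-type libraries (-3.16, SE 0.36, limma adjusted p = 5.01e-05). The red cell gene Hbb-bs, which has near-identical copies, was lower by 3.60. Mmp9, a gelatinase of neutrophils and macrophages, lay at 6.35, 4.75, 5.39 and 6.02 in libraries labelled Double-Het and at 10.98, 9.5, 9.47, 9.73 and 9.69 in wild-type libraries (-4.25).

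Of 35 chemokine and cytokine genes 11 fell and 1 rose (34.3% called, against 14.8% of all genes). The neutrophil chemokines Cxcl2 (-1.60) and Cxcl1 (-1.34), the monocyte chemokines Ccl7 (-1.84) and Ccl2 (-0.77) and the stromal chemokines Cxcl12 (-2.50) and Cxcl14 (-2.40) were lower, and Cxcl17, a mucosal chemokine, was higher by 0.71. Vcam1, an adhesion molecule, lay at 8.11, 7.21, 6.86 and 6.80 in libraries labelled Double-Het, against 11.21, 10.40, 10.95, 10.62 and 10.41 in wild-type libraries (-3.47, SE 0.40, limma adjusted p = 5.01e-05). Icam1, another, lay at 14.30, 13.89, 14.25 and 14.14 in libraries labelled Double-Het and at 14.77 to 14.87 in wild-type libraries (-0.69, SE 0.10, limma adjusted p = 0.000173). Both stand in the list of NF-kB genes, of which 3 of 24 fell and 1 rose (16.7% called, against 14.8% of all genes). Interferon-response genes gave 6 falls among 42, from Oas2 (-1.61) and Gbp4 (-1.12) to Gbp2 (-0.75), a called share of 14.3%. In class I antigen presentation 1 of 20 was called, the peptide transporter Tap1 (0.51), and in class II presentation H2-Oa (1.08) and H2-Ob (0.56), which restrain peptide loading, were higher among 16 genes. The called shares of these lists were 5.0% and 18.8%. The class II pseudogene H2-Ea-ps ranged over 5.70 to 12.31 in libraries labelled Double-Het and 8.59 to 15.53 in wild-type libraries, and its call (-5.77, limma adjusted p = 0.0264) was lost without any of 6 single libraries. Of 14 type 2 inflammation genes 1 rose and 2 fell (21.4% called). Alox15, a lipoxygenase, was higher by 1.84. The receptor gene Il4ra lay at 12.01, 11.81, 11.95 and 12.08 in libraries labelled Double-Het and at 12.67 to 13.15 in wild-type libraries (-0.97, limma adjusted p = 0.001).

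Circadian clock genes changed in both directions. In this feedback loop BMAL1 (encoded by Arntl) and CLOCK drive Per genes and the output factors Dbp, Tef and Hlf through E-boxes, and REV-ERB proteins repress Arntl in return. Of 19 genes 5 rose and 2 fell (36.8% called, against 14.8% of all genes). Tef, whose promoter with its CACGTG is shown above, lay at 15.13, 15.48, 15.44 and 15.22 in libraries labelled Double-Het, against 14.90, 14.68, 14.41, 14.35 and 14.46 in wild-type libraries (0.76, SE 0.13, limma adjusted p = 0.000792). Per3 lay at 13.81, 14.06, 14.01 and 13.69 in libraries labelled Double-Het and at 13.39, 13.19, 13.14, 12.25 and 12.83 in wild-type libraries (0.93, SE 0.20, limma adjusted p = 0.00543). Dbp lay at 14.18, 14.33, 13.85 and 13.39 in libraries labelled Double-Het and over a wide range of 10.03 to 13.17 in wild-type libraries (1.84, limma adjusted p = 0.0236). Per2 (0.81) was higher as well, and Tef, Per3, Dbp and Per2 did not overlap between the genotypes. In the whole list 7 of 19 genes were without overlap, all higher, against 15.7% of all genes tested.

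Genes of the positive arm, Arntl and Clock, fell. Arntl lay at 9.25, 9.10, 9.56 and 10.09 in libraries labelled Double-Het and at 10.14, 10.09, 10.91, 11.47 and 10.28 in wild-type libraries (-1.08, SE 0.28, limma adjusted p = 0.017), meeting at 10.09. Clock fell by 0.52 (limma adjusted p = 0.0333), with Double-Het replicates 15 and 16 at 11.72 and 11.55 and replicates 17 and 18 nearer to wild type at 12.15 and 12.46. Per1 (0.10), Cry2 (0.08), Hlf (0.04) and Nr1d1 (-0.22) did not pass. Dbp, Arntl, Clock and Per2 lost their calls without Double-Het replicate 15 or 16, with 3 of the 19 genes, all higher, still called in either case, and after the centring 4 rose and 3 fell. Wild-type libraries differed among themselves in these genes by up to several log2 units, and the time at which animals were killed is not given.

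**Figure D5:**
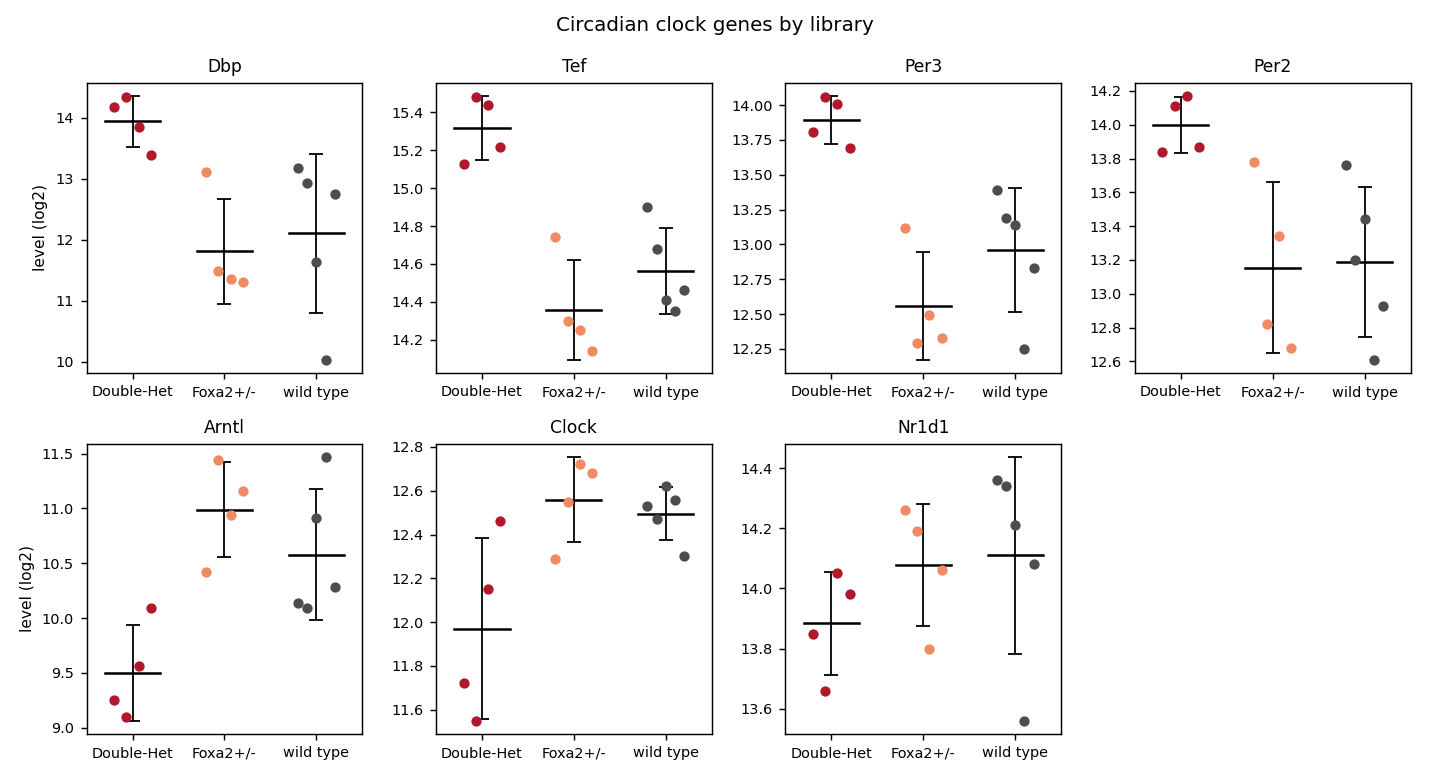
Log2 level of 7 circadian clock genes (y axis, scale differs by panel) in each library (points) labelled Double-Het, Foxa2+/- and wild type, with mean (line) and SD (bar). Tef is at 15.13 to 15.48 in libraries labelled Double-Het and at 14.90 or less in the other libraries drawn, and Arntl is at 9.10 to 10.09 in libraries labelled Double-Het.

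Detoxification and lipid genes gave scattered rises. Of 33 xenobiotic enzymes 8 rose and 1 fell (27.3% called, against 14.8% of all genes), with a median of 0.36. Cyp1b1, a cytochrome P450 gene, lay at 11.31, 11.57, 11.89 and 11.06 in libraries labelled Double-Het, against 10.00, 9.58, 9.99, 10.75 and 9.61 in wild-type libraries (1.47, SE 0.29, limma adjusted p = 0.00302). Cyp1a1, a second target of the aryl hydrocarbon receptor, went the other way, at 7.59, 7.32, 6.28 and 7.60 in libraries labelled Double-Het and 9.22, 9.77, 8.54, 9.69 and 9.65 in wild-type libraries (-2.18, SE 0.56, limma adjusted p = 0.0147). Nqo1, a quinone reductase, lay at 11.04, 11.31, 11.31 and 10.65 in libraries labelled Double-Het and at 9.74 to 10.24 in wild-type libraries (1.07, SE 0.22, limma adjusted p = 0.00311). Among the 28 glutathione and Nrf2 target genes 4 rose and 2 fell (21.4% called). Srxn1 was higher by 0.60, after Nqo1, and the secreted enzymes Sod3 and Gpx3 fell by 2.74 and 2.61. Of 34 genes of fatty acid and surfactant lipid metabolism 8 rose and 2 fell (29.4% called). Acsl1, a fatty acid activating enzyme, lay at 13.19, 13.76, 13.88 and 13.18 in libraries labelled Double-Het and at 12.58 to 12.82 in wild-type libraries (0.79, SE 0.16, limma adjusted p = 0.00252), the triglyceride synthase Dgat2 was higher by 1.0 and the lipid phosphatase Plpp1 lower by 1.63. After the centring 3 xenobiotic, 2 glutathione and 4 lipid genes were called higher.

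Ion transport genes gave 5 rises and 2 falls among 29 (24.1% called, against 14.8% of all genes). Cftr, the epithelial chloride channel, lay at 13.57, 13.24, 13.63 and 13.56 in libraries labelled Double-Het, against 13.19, 12.81, 12.73, 12.10 and 12.68 in wild-type libraries (0.80, SE 0.24, limma adjusted p = 0.0341), a call lost after the centring and without any of 7 single libraries. Aqp1, the water channel of lung capillaries, fell by 2.41.

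Genes that every cell uses had small positive medians. The median difference was 0.17 over 47 ribosomal protein genes, 0.20 over 54 genes of oxidative phosphorylation, 0.15 over 54 mitochondrial ribosome genes and 0.13 over 31 proteasome genes, against 0.07 over all genes, with 4, 2, 4 and 1 called, all higher. The called shares were 8.51%, 3.7%, 7.41% and 3.23%, against 14.8% of all genes. After the centring the medians of these lists were 0.00, 0.03, -0.02 and -0.04, and 1, 0, 0 and 0 were called. With library weights 41, 40, 25 and 13 were called, all higher. Ribosomal list means were 14.91, 15.01, 14.55 and 14.66 in libraries labelled Double-Het and 14.45, 14.44, 14.62, 14.65 and 14.70 in wild-type libraries, so that Double-Het replicates 15 and 16 alone lay above wild type. Rps2, a ribosomal protein gene with many processed copies, lay at 15.14, 15.27, 14.80 and 14.68 in libraries labelled Double-Het and at 14.14 to 14.27 in wild-type libraries (0.78, SE 0.17, limma adjusted p = 0.00539) and kept its call after the centring. In glycolysis 4 of 22 rose, Pdk1 by 0.59, Aldoc by 0.45, Pgk1 by 0.31 and Ldha by 0.24, and Pfkfb3 fell by 0.55. These 5 calls are 22.7% of the glycolysis list. After the centring 0 were higher and 2 lower, and without Double-Het replicate 15 none of the 22 was called and without replicate 16 only 1. One of 19 cholesterol synthesis genes, Fdft1, was higher, by 0.67, a call lost without Double-Het replicate 15.

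Among 31 immediate early genes, which tissue dissociation can induce, 6 fell and 0 rose (19.4% called, against 14.8% of all genes), and Fos itself, at 15.70 to 15.93 in libraries labelled Double-Het and 15.77 to 16.31 in wild-type libraries, did not pass (-0.24, limma adjusted p = 0.134). Klf2, also a factor of vessels, fell by 0.98 and the phosphatase gene Dusp1 by 0.52, a call lost without any of 5 single libraries. One of 22 heat shock genes, the co-chaperone Bag3, fell by 0.49. In the unfolded protein response Trib3 was higher by 0.57, and Ppp1r15a and Syvn1 were lower by 0.44 and 0.20, among 27 genes (11.1% called). Syvn1 lost its call without any of 7 single libraries and without the intensity trend. Of 39 cell cycle genes Cdkn1a, which encodes the cycle inhibitor p21, was the one called, at 12.81, 12.56, 12.31 and 12.84 in libraries labelled Double-Het and 13.35, 13.37, 13.85, 13.83 and 13.20 in wild-type libraries (-0.89, SE 0.15, limma adjusted p = 0.000921). The proliferation marker Mki67 differed by -0.17 (95% confidence interval -0.65 to 0.31). None of 6 cardiac and 7 Schwann cell genes was called by limma, with 0 and 0 at an unadjusted p below 0.05, and 1 and 0 called when libraries were weighted.

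A direct test against Foxa2+/- libraries, which share the loss of a Foxa2 copy, called 370 genes, 2.43% of those tested. Of these 161 were higher (1.06%) and 209 lower (1.37%) in libraries labelled Double-Het, 148 differed by 1 log2 unit or more, and the median difference over all genes was 0.02. Of the 370 genes, 229 were also called against wild type, with the Double-Het-labelled libraries common to both tests. This count fell to 90 without Foxa2+/- replicate 13, to 183 without Foxa2+/- replicate 14 and to 171, 152 and 130 without Double-Het replicates 15, 16 and 17.

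Macrophage genes differed in this direct test. In the macrophage list 13 of 34 were lower in libraries labelled Double-Het than in Foxa2+/- libraries and 0 higher, with a median of -0.82. F13a1, at 5.03 to 6.35 in libraries labelled Double-Het, lay at 12.37, 12.01, 13.09 and 11.60 in Foxa2+/- libraries (-6.46, limma adjusted p = 0.00251), Stab1, a scavenger receptor, was lower by 4.26 (limma adjusted p = 7.67e-05) and Vcam1 by 3.90 (limma adjusted p = 0.00015). The C1q genes were lower by 3.69 to 4.32, and the calls of C1qa, C1qb and C1qc were lost without Foxa2+/- replicate 13 or Double-Het replicate 17. That of C1qb was also lost without Foxa2+/- replicate 11 or Double-Het replicate 16. By contrast 1 of 38 endothelial and 1 of 27 fibroblast genes were called against Foxa2+/-, with medians of -0.37 and -0.44, and the alveolar type 1 list had 0 calls and a median of 0.08. The endothelial falls given above against wild type therefore stand beside Foxa2+/- levels close to those of the libraries labelled Double-Het, whereas the macrophage falls do not. Falcor-/- libraries were also lower than wild type in F13a1 (-3.97, limma adjusted p = 0.0151), Mmp13 (-3.81), H2-Q1 (-4.05), Pla2g2d (-2.92) and Cd209f (-2.87), all called. These are differences of means over uneven libraries. The SD among Falcor-/- libraries was 2.68, 2.58, 1.77, 1.98 and 2.24 in these genes, in the same order. Among wild-type libraries it was 0.18, 0.56, 0.67, 0.76 and 0.62. Cxcl13 (-2.71), Pla2g7 (-1.82) and Phf24 (-0.73) were not called there. Their macrophage list means, 11.0, 11.33, 9.69, 11.8 and 10.68, overlapped those of both other groups. By their means these 5 falls were thus not confined to libraries labelled Double-Het, and whether every Falcor-/- library shared them was not tested.

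Chemokine, immediate early and clock genes also differed directly. Cxcl1 lay at 7.80, 8.60, 8.31 and 8.35 in libraries labelled Double-Het, against 10.87, 10.45, 11.49 and 11.24 in Foxa2+/- libraries (-2.75, limma adjusted p = 3.39e-05) and 9.12 to 10.17 in wild-type libraries, so it was lowest in the first and highest in the second. Of 35 chemokine and cytokine genes 9 were lower than in Foxa2+/- and 0 higher, and of 31 immediate early genes 8 were lower and 0 higher, with medians of -0.46 and -0.45. Fos was lower than in Foxa2+/- by 0.54 and Dusp1 by 0.83, calls that were lost without Foxa2+/- replicate 13 and, for Fos, without Double-Het replicate 16. Among clock genes 5 of 19 were higher and 3 lower than in Foxa2+/-, with Tef higher by 0.96 (limma adjusted p = 0.00202), Per3 by 1.33 (limma adjusted p = 0.00442) and Arntl lower by 1.49 (limma adjusted p = 0.0161). The call of Arntl was lost without Double-Het replicate 15 or 16 or Foxa2+/- replicate 13. Nrep, a neuronal regeneration-related gene, lay at 12.02, 11.83, 11.77 and 11.76 in libraries labelled Double-Het, against 11.17, 10.68, 10.77 and 10.97 in Foxa2+/- libraries (0.95, limma adjusted p = 0.00125), and at 11.43 to 11.99 in wild-type libraries, which the libraries labelled Double-Het overlapped.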

How the data were processed

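Total RNA of bead-captured EpCAM+ lung cells was sequenced, and the comparison takes 4 libraries labelled Double-Het, 4 Foxa2+/- and 5 wild-type libraries out of 18. The authors deposited 1 log2 value per gene and library. The deposited values have nearly the same sorted values in every library (medians 11.029 to 11.032), as quantile normalization gives, so a shift of all genes together cannot be seen and values at the top ranks are nearly fixed. STAR, limma and the mouse build mm9 are named per the submitters' processing notes. For the counter, its strand setting, the annotation and the normalization, nothing is stated in the labels or headers, and overlapping or near-identical genes may share reads. Read depth is unknown, so no counting interval or detection floor is given.

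Of 15544 genes, 14994 matched a symbol in GENCODE vM21, and 15249 with a mean of 6 or more over 18 libraries were tested. One limma 3.58.1 model (R 4.3.3, empirical Bayes with an intensity trend) over all 18 libraries gave differences, standard errors and 95% intervals, with Benjamini-Hochberg adjusted p over all tested genes and a threshold of 0.05. Foxa2 and Falcor also had an exact 2-sided permutation test over 126 regroupings. The fit was also run on simulated normal values with the mean and residual spread of each gene and no other genotype difference. In these, 67, 67 and 66 genes were shifted by 0.5, 1 and 2 log2 units in the Double-Het group. It recovered 37.3%, 73.1% and 93.9% of them against wild type (15249 genes fitted), and 31.3%, 74.6% and 92.4% against Foxa2+/-. Far fewer genes were shifted there than were called in the data, so these shares need not hold for the real fit. Lists of genes were read by counts and medians.

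Genes were named by a rule: the Foxa genes and Falcor, the 8 largest non-overlapping rises and falls, the 5 abundant rises and falls with the smallest p, up to 2 called genes per list and up to 4 each way against Foxa2+/-. A further 42 genes, the other list members given with a difference, Slc38a4 and the promoters of Falcor and Tef were chosen after their values were seen. The members and the 50 lists, which share some genes, were chosen with earlier results of these data known. Alternatives were the filter, the treatment of low values, library weights, the 2 genotypes alone, the trend, robust fitting, centring on epithelial junction genes, the endothelial list mean as a covariate and leaving out each library. Sequences come from RefSeq on GRCm38.p6, which is not the build of the files, and no coordinates were taken from mm9. Results for a few list members are not reported here, although the list counts include them.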

Additional observations from a re-analysis of the deposited data

Results flagged for a closer look

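Of 183 groups of 4 or 5 libraries examined, 13 held a library far from the others. Chance alone gives such a library in about 1 in 20 groups. In libraries labelled Double-Het, Kng2 was 9.51 in replicate 17 against 8.24 to 8.26 in the others, and Fez1 was 7.92 in replicate 16 against 8.45 to 8.48. The list mean of heat shock genes was 13.05 in replicate 18 against 13.29 to 13.33, that of dendritic genes 11.02 in replicate 17 against 11.17 to 11.20, and that of Schwann cell genes 9.64 in replicate 15 against 9.74 to 9.76.

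Phf24 was 9.91 in Foxa2+/- replicate 11 against 10.78 to 10.92 in the others.

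Wild-type replicate 3 stood low in 5 of the 13 cases. Thbd was 13.41 there against 14.45 to 14.87 in the other wild-type libraries, Jcad 13.07 against 13.72 to 13.98, the alveolar type 1 list mean 13.87 against 14.51 to 14.66, the YAP target mean 12.23 against 12.45 to 12.53 and the laminin and integrin mean 11.99 against 12.33 to 12.40. Its endothelial list mean, 11.18, was also the lowest of the wild-type libraries, and the count of called genes without it was 2126. In wild-type replicate 5, Mmp13 was 7.98 against 9.08 to 9.37 and the mean of class I presentation genes 13.6 against 13.36 to 13.38.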

How the results depend on the processing

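No paired analysis was possible because the replicate numbers 1 to 18 are each used once and tie no library of a genotype to another. Against wild type, 2254 genes were called, between 1932 and 2492 under 7 other settings, 4939 with library weights (2217 shared with the 2254) and 2 with the endothelial list mean as covariate. Leaving out 1 library gave 1342 to 2435, with 1374 without Double-Het replicate 15 and 1342 without replicate 16. By 1 log2 unit or more, 781 were called, 2 with the covariate and 657 to 834 with a library left out. Foxa2 (-0.60) was -1.11 (adjusted p = 0.0775) with the covariate and -0.68 to -0.52 with a library left out, and Falcor (1.48) was 2.15 (adjusted p = 0.707) and 1.35 to 1.61. Against Foxa2+/-, 370 genes were called, 2125 with library weights, 248 with the covariate and 90 to 381 with a library left out.

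Of 132 named genes called against wild type, 101 were called in every fit but the covariate one, and 23 changed sign with the covariate and in no other fit. Those were Foxa1 (-0.21), Muc1 (-0.04), Cav1 (0.10), Limch1 (0.01), Pdpn (0.56), Scn3b (0.39), Ehf (-0.04), Tbx2 (0.10), Hey1 (0.18), Nkd2 (0.02), Eng (0.13), Bmp6 (0.15), Cxcl12 (0.35), Il4ra (0.07), Gbp4 (0.12), Klf2 (0.16), Pfkfb3 (0.19), Plpp1 (0.04), Aqp1 (0.07), Pecam1 (0.09), Per2 (-0.14), Cyp1a1 (0.08) and Vegfa (0.24). Eng and Pecam1 are themselves members of the endothelial list whose mean is the covariate. Of 46 named genes called against Foxa2+/-, 23 were called in every fit but the covariate one and 0 changed sign. The counts of the 50 lists stayed within 1.5 times in 704 alternatives and moved further in 196. The cause of these changes was not tested, except that the covariate does not overlap between Double-Het-labelled and wild-type libraries, so that fit cannot separate it from genotype. Unknown read depth limits what can be said of low genes.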
